A study of Mus musculus with 223 samples.

Results

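The ionotropic glutamate receptor subunits of the AMPA and NMDA classes were followed in single Htr3a-GFP+ cells of the developing mouse cortex. The 10 genes were chosen by name, whatever their level: Gria1, Gria2, Gria3 and Gria4 for AMPA receptors and Grin1, Grin2a, Grin2b, Grin2c, Grin2d and Grin3a for NMDA receptors. All of them were found among the 43629 genes counted. The cells came from transgenic mice on a C57BL/6 background, both sexes, in which eGFP is driven by Htr3a regulatory sequences, a line used to label interneurons (INs) that derive mainly from the caudal ganglionic eminence. Cortices were taken at embryonic day 18 (E18) and at postnatal days 2 and 5 (P2 and P5), GFP+ cells were sorted, and each library came from 1 captured cell. The groups were 82 cells at E18, 22, 31 and 13 cells of types 1, 2 and 3 at P2, and 34, 19 and 22 cells of types 1, 2 and 3 at P5. The postnatal types are the study's own assignment, drawn from these same counts, so levels by type are a description. The labels name no other allele and no treatment, and P5 tissue was dissociated in another solution and at a lower temperature than E18 and P2 tissue, so the age and the procedure cannot be told apart at P5.

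AMPA receptors are tetramers that carry most fast excitatory transmission, and whether Gria2 is among the subunits sets whether the channel lets calcium through. NMDA receptors need the obligatory subunit Grin1, which is joined by Grin2 subunits that bind glutamate and set the kinetics, or by Grin3 subunits that bind glycine and lower calcium entry. In cortical neurons Grin2b and Grin2d are known as the early Grin2 subunits and Grin2a as the later one, and early glutamate receptors are known to act on the migration and survival of INs before synapses are mature.

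Levels are in RPM, read pairs per 1000000 mapped read pairs, from counts on whole genes, and a gene was called expressed in a cell above 10 RPM. A pooled RPM is the summed count of a group over its summed mapped read pairs. Pooled values carry exact 95% intervals from the Poisson distribution and cell shares carry exact 95% intervals from the binomial one, and both cover counting error only, since PCR copies were not told apart by molecular identifiers. Where 0 cells passed, the limit given is instead 3 divided by the number of cells. Animals were pooled at each age and the labels tie no cell to an animal, so cells are not replicates, no comparison here could be checked against replicates and no p-value is given. E18 and P5 cells were captured on more than 1 microfluidic chip and P2 cells on 1, and the chip of a cell is not in the labels. Mapped read pairs ranged from 3707601 to 15840130 per cell, and no 2 cells held identical counts. The share of mapped read pairs that fell on genes was 34.1% in P5 type 3 against 45.1% to 60.8% in the other groups, so RPM values of that group are low relative to a scale of read pairs on genes. All P2 cells carry 1 library label, set A, while the E18 and P5 cells carry labels B, C and D, whose meaning is not stated.

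The cells were checked against markers. Of 6 IN genes (Gad1, Gad2, Dlx1, Dlx2, Dlx5 and Dlx6), at least 3 passed 10 RPM in 61 of 82 cells at E18, 35 of 66 at P2 and 66 of 75 at P5. At E18 the cells also held genes of the medial ganglionic eminence (MGE), from which a different class of INs derives: at least 3 of Lhx6, Sst, Nkx2-1, Sox6, Satb1 and Pvalb were above 10 RPM in 34 of 82 cells, against 4 of 66 at P2 and 0 of 75 at P5. Sst alone was above 10 RPM in 52 of the 82 E18 cells. The summed level of these 6 genes had a median of 468 RPM per E18 cell (range 0.201 to 3603), 2.19 per P2 cell (0 to 3412) and 4.08 per P5 cell (0 to 728), and Pvalb had no read pair at any age. At least 3 of 8 excitatory neuron genes were above 10 RPM in 12 of the 82 E18 cells and in 0 of 66 P2 and 0 of 75 P5 cells, and the median summed level of that list was 1.22, 0.506 and 0.622 RPM at the 3 ages. At least 3 of 8 genes of astrocytes or radial glia were above 10 RPM in 1 of 82 E18, 0 of 66 P2 and 7 of 75 P5 cells. Of those 7, 4 were among the 19 cells of P5 type 2, where the summed pooled level of that list was 2010 RPM against a cell median of 179.6. The E18 cells therefore go in part against the label of the line, and the main ratios to E18 are also given without the cells, 44 of them at E18, that held at least 3 genes of another cell type.

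The stretch of the gene that decides calcium entry is shown for the subunits the results turn on, from the GRCm38 genome and GENCODE M21 transcripts, read in the direction of the gene. In the AMPA subunits it is the Q/R site in the pore loop, a glutamine codon given in capitals. It lies at codon 600 in exon 11 of Gria1, codon 607 in exon 11 of Gria2, codon 612 in exon 11 of Gria3 and codon 608 in exon 12 of Gria4.
Gria1 (chr11:57243082-57243111, plus strand): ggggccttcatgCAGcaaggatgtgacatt
Gria2 (chr3:80706896-80706925, minus strand): ggtgcctttatgCAGcaaggatgcgatatt
Gria3 (chrX:41610253-41610282, plus strand): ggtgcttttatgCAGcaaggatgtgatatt
Gria4 (chr9:4464122-4464151, minus strand): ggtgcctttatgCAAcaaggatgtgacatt
The genome thus codes for glutamine in all of them, and in Gria2 that codon is known to be recoded to arginine in the RNA by the deaminase ADAR2, encoded by Adarb1. Counts per gene do not show the edited base. In Grin1 and the Grin2 subunits the matching position is an asparagine codon, the site of the magnesium block, which is shown for the obligatory subunit and lies at codon 637 in exon 14 of Grin1.
Grin1 (chr2:25297371-25297400, minus strand): ggcgtcctgctcAACtctggcattggggaa

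Across the 7 groups the subunits fell into a widely expressed pair, a pair present in part of the cells and a set of rare ones. Depending on the group, 69.2% to 95.5% of cells expressed Gria2 and 73.7% to 95.5% expressed Grin2b. Gria1 was expressed by 70.7% of the E18 cells (95% interval 59.6 to 80.3) and by 9.09% to 50% of the postnatal groups, and Gria4 by 7.69% to 39%. Gria3, Grin1, Grin2a, Grin2c, Grin2d and Grin3a did not exceed 31.8% in any group.

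**Figure D1:**
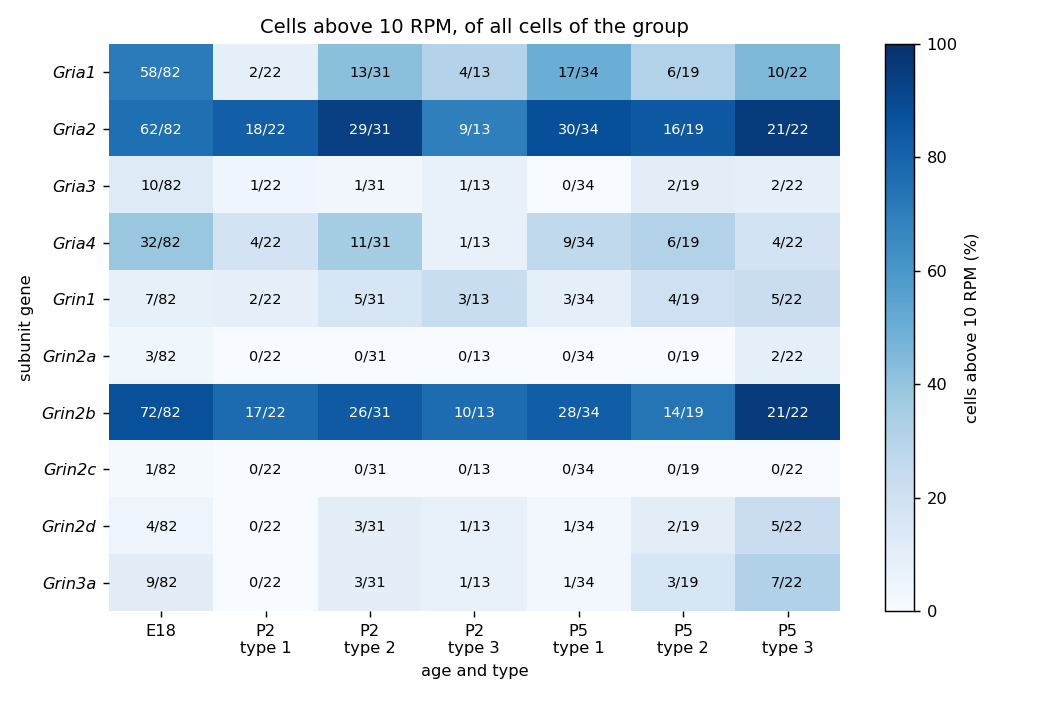
Cells above 10 RPM for each of the 10 subunit genes in E18 cells and in types 1 to 3 at P2 and P5, as the number of cells of all cells in the group (text) and as a percentage (colour). Gria2 and Grin2b are dark in every column, Gria1 is darkest at E18 with 58 of 82 cells, and Grin2c has 1 cell in all.

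Gria1, the subunit known for its part in activity-dependent receptor insertion, was highest at E18. Its level per E18 cell ran from 0 to 2978 RPM with a median of 399.7, and the pooled level was 513 RPM (95% interval 512 to 515). At P2 the pooled level was 22.5 RPM in type 1, where 2 of 22 cells at 133 and 353.8 RPM held nearly all read pairs and the median cell was at 0. It was 233 RPM in type 2, with 13 of 31 cells above 10 RPM and a highest cell of 1700, and 65.4 RPM in type 3, with 4 of 13 cells and a highest cell of 304. At P5 it was 158 RPM in type 1 (17 of 34 cells, median 18.7, highest 929), 40.5 RPM in type 2 (6 of 19 cells, median 0.0893, highest 519) and 88.8 RPM in type 3 (10 of 22 cells, median 4.63, highest 455). The range of single cells thus overlapped between all groups, and the groups differed in how many cells were on and how high those cells were. Among the cells above 10 RPM the median was 656 at E18, 243 to 345 in P2 types 1 and 2, 171 in P2 type 3 and 60.9 to 155 in the P5 types. Type 2 was thus the highest type at P2 and the lowest at P5 for this gene by pooled level, while type 1 went from the lowest to the highest. Within library sets type 1 was not clearly the highest at P5: types 1 and 3 were at 133 and 157 RPM in set B, 282 and 199.6 in set C and 65.1 and 64.97 in set D.

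Within the E18 cells Gria1 was highest where MGE genes were found. It was above 10 RPM in 32 of the 34 cells with at least 3 MGE genes, with a median of 715 RPM and a pooled level of 804. In the 37 cells with 1 or 2 of those genes it was above 10 RPM in 20, with a median of 29.1 and a pooled level of 345. In the 11 cells with none of them, 6 were above 10 RPM, with a median of 52.3 and a pooled level of 170.1. In the 12 cells with at least 3 excitatory neuron genes the pooled level was 111. The 38 E18 cells with fewer than 3 genes of every other cell type had 21 cells above 10 RPM, a median Gria1 of 39.4 RPM and a pooled level of 366. That was above the pooled level of each postnatal type, but these cells could still hold 1 or 2 MGE genes. The 170.1 RPM of the 11 cells with no MGE gene lay below the 233 RPM of P2 type 2. How far the cell makeup of the E18 sample sets the E18 level was not tested.

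**Figure D2:**
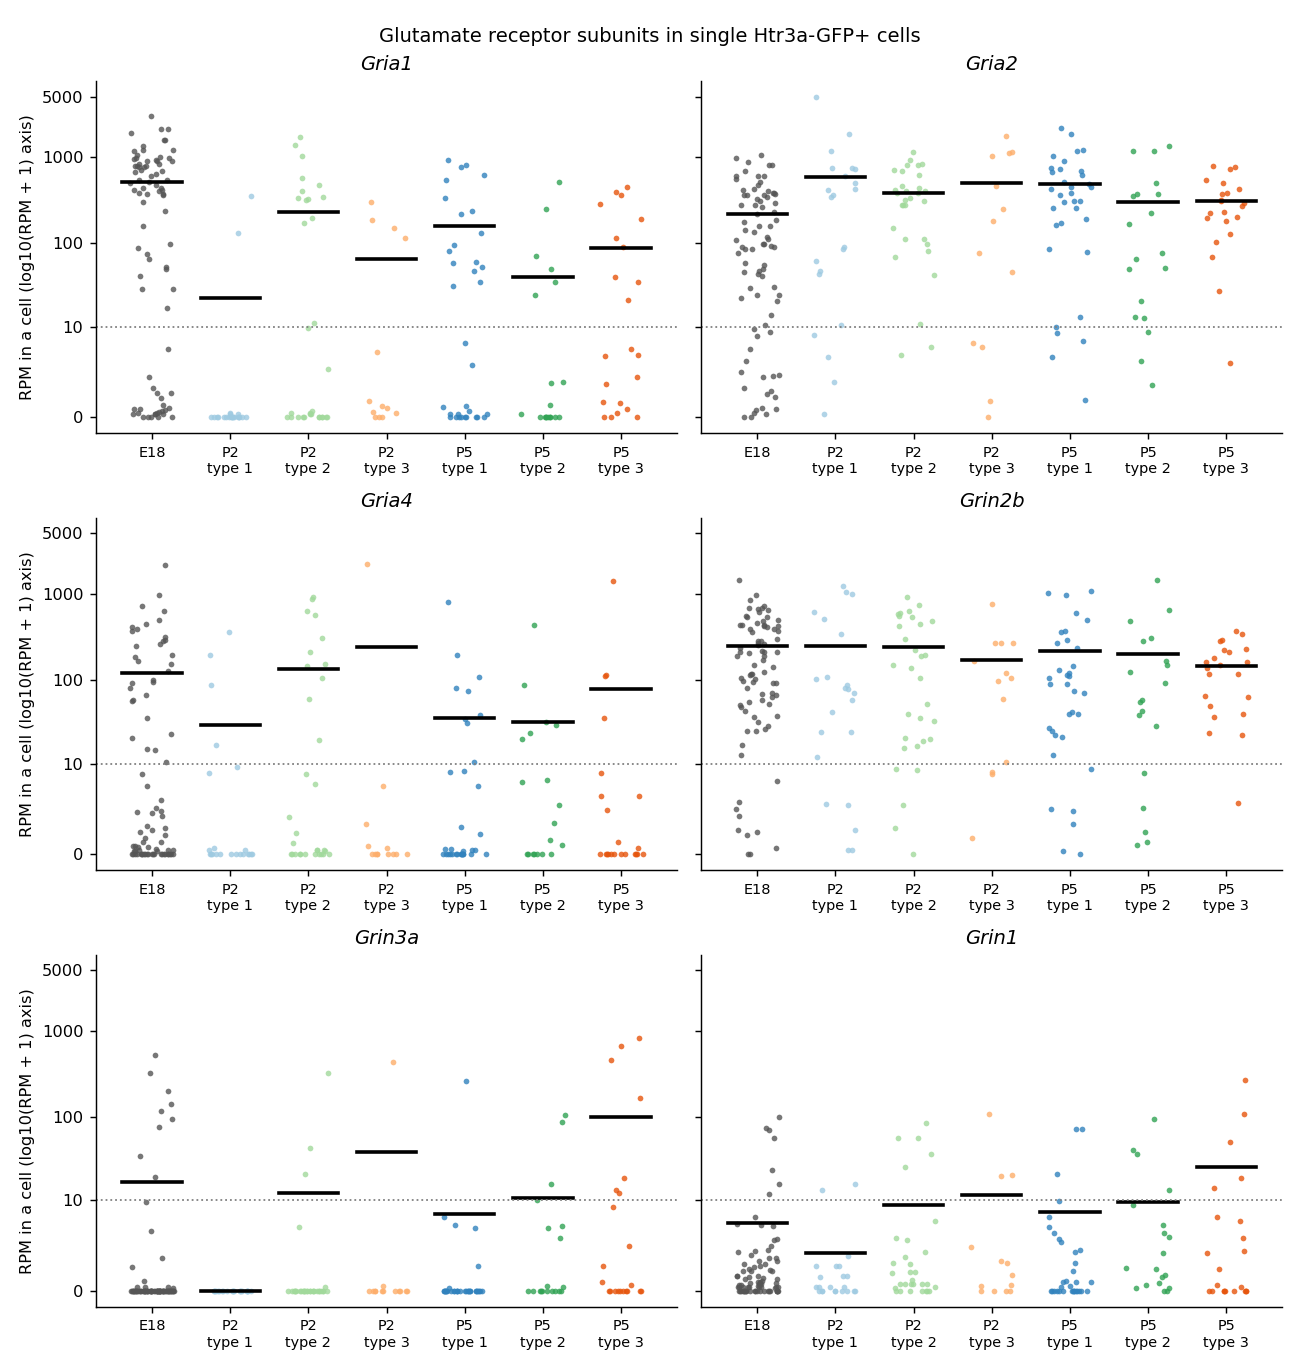
RPM per cell of Gria1, Gria2, Gria4, Grin2b, Grin3a and Grin1 in each of the 7 groups, on a log10(RPM + 1) axis labelled in RPM. Each point is a cell, the black bar is the pooled RPM of the group and the dotted line is 10 RPM. Gria2 and Grin2b have most points above the line in all groups, while the bars of Gria4, Grin3a and Grin1 are carried by a few points.

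Gria2, the subunit whose edited form blocks calcium entry, was present at every stage, with a higher pooled level than at E18 in each postnatal type when all cells were used. Its level at E18 ran from 0 to 1050 RPM per cell with a median of 95.1, in 62 of 82 cells above 10 RPM, and its pooled level was 219 RPM (95% interval 218 to 220). At P2 the pooled levels were 590 RPM in type 1 (0.0965 to 4938, median 356), 385 in type 2 (4.21 to 1142, median 334) and 502 in type 3 (0 to 1742, median 182). The highest cell of P2 type 1 held 37.9% of that group's read pairs, and the pooled level without it was 384. At P5 the pooled levels were 484 RPM in type 1 (0.577 to 2143, median 377), 299 in type 2 (1.34 to 1348, median 77.1) and 309 in type 3 (3.25 to 786, median 283). In P5 type 2 the level was 147 RPM without the 4 cells that held at least 3 genes of astrocytes or radial glia, below the 169 RPM of E18 cells under the same rule. The median of P5 type 2 was also below that of E18. Per group, 9 of 13 to 21 of 22 postnatal cells were above 10 RPM, and these ranges overlapped with E18 in every type.

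Gria4, a subunit common in INs, was expressed in 32 of 82 E18 cells with a pooled level of 122.5 RPM, a median of 1.03 and a highest cell of 2172. In P2 type 2 it was at 137 RPM with 11 of 31 cells above 10 RPM. The pooled level of 244 RPM in P2 type 3 came from 1 cell at 2196 RPM, and without it the level was 0.499. In the same way 1 cell at 1425 RPM held 85.8% of the read pairs of P5 type 3, whose pooled level went from 79.2 to 11.8 RPM without it. P2 type 1 and P5 types 1 and 2 lay between 30.1 and 36.2 RPM, and at 14.6, 18.7 and 11.8 RPM without the highest cell of each. Gria3 was the rarest AMPA subunit, above 10 RPM in 10 of 82 E18 cells at a pooled 13.4 RPM, in 1 cell of each P2 type, in 0 of 34 cells of P5 type 1 (which allows a share of up to 8.82%) and in 2 cells each of P5 types 2 and 3. The 23.3 RPM of P5 type 3 were 3.52 when its highest cell, at 459 RPM, was left out.

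Because the annotated exons of these genes differ from 6043 bases in Gria1 to 15548 in Gria2, levels of different subunits were compared only as pooled RPM per kb of exon. On that scale Gria1 made up 70.9% of the summed AMPA level at E18, Gria4 16.2%, Gria2 11.7% and Gria3 1.13%. At P2 Gria2 made up 43.2% and Gria1 31.2%, and at P5 49% and 35.4%. By type the Gria2 share was 81.2%, 29.1% and 39.3% in types 1, 2 and 3 at P2 and 49.3%, 60.6% and 40.2% at P5. Without the highest cell of each subunit these shares were 87.8%, 31.9% and 80.5% at P2 and 54.6%, 73.8% and 56.8% at P5, so the value of P2 type 3 rests on the 1 Gria4 cell. In P5 type 2 the share was 39.2% without cells that held genes of another cell type. The share depends on the length used: per kb of coding sequence Gria2 was at 25.7% at E18, 66.2% at P2 and 71% at P5, but the order of the ages was the same. The summed AMPA level per kb was 119.8 at E18 and 31.7 to 85.2 in the postnatal types.

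The same could be seen within single cells. Of the cells with an AMPA subunit above 10 RPM, Gria1 was the highest one per kb of exon in 49 of 77 E18 cells (63.6%, with a 95% interval of 51.9 to 74.3), 13 of 59 P2 cells (22%, 12.3 to 34.7) and 17 of 72 P5 cells (23.6%, 14.4 to 35.1). Gria2 was the highest in 21 of 77, 37 of 59 and 47 of 72 such cells. It was the only AMPA subunit above 10 RPM in 12 of 77 cells at E18, 31 of 59 at P2 and 27 of 72 at P5, with P2 type 1 at 13 of 20. Cells with another AMPA subunit but no Gria2 above 10 RPM numbered 15 of 77 (19.5%, 11.3 to 30.1), 3 of 59 (5.08%, 1.06 to 14.1) and 5 of 72 (6.94%, 2.29 to 15.5) at these ages. Among all 82 E18 cells, 45 had both Gria1 and Gria2. Gria1 and Gria4 went together in part: Gria1 was above 10 RPM in 26 of 32 E18 cells with Gria4 and in 32 of 50 without it, in 9 of 16 and 10 of 50 at P2, and in 8 of 19 and 25 of 56 at P5.

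**Figure D3:**
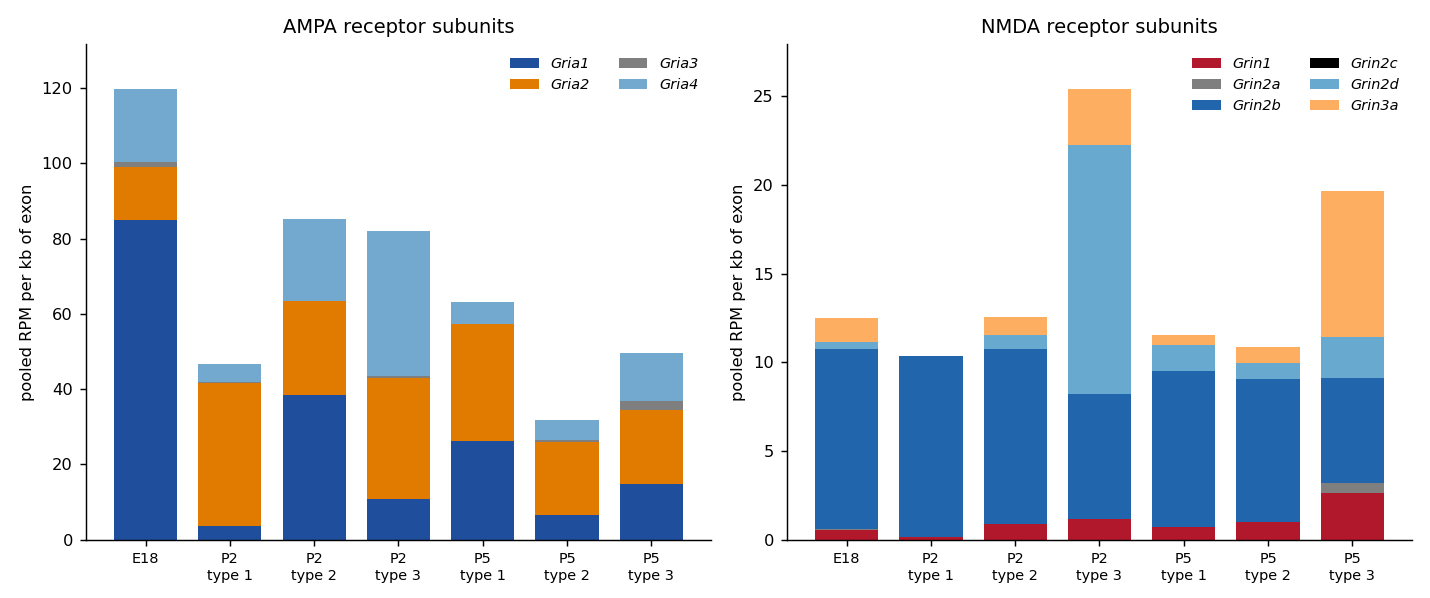
Pooled RPM per kb of exon of the AMPA subunits (left) and the NMDA subunits (right), stacked, in the 7 groups, with axes that start at 0. Gria1 makes up 70.9% of the AMPA bar at E18 and Gria2 81.2% in P2 type 1. In P2 type 3 the tall Grin2d block is 1 cell at 2106 RPM and nearly all of the Gria4 block is 1 cell at 2196 RPM.

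Grin1, without which no NMDA receptor forms, was low in all groups. Its pooled level was 5.05 RPM at E18, 1.71, 8.87 and 11.6 RPM in types 1, 2 and 3 at P2, and 7.07, 9.47 and 25.5 RPM at P5. It passed 10 RPM in 7 of 82 E18 cells, 10 of 66 P2 cells and 12 of 75 P5 cells, and the median cell was below 1 RPM in every group, although at least 1 read pair was found in 59, 46 and 49 cells. Of the 72 E18 cells with Grin2b above 10 RPM, 5 had Grin1 above 10 RPM and 52 had a read pair on it. Those numbers were 8 and 37 of 53 at P2 and 9 and 40 of 63 at P5. In P5 type 3 the highest cell, at 271 RPM, held 59.8% of the read pairs. Grin1 shares 1307 exonic bases with the antisense gene Grin1os, and whether counting used strand is not stated.

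Grin2b, the Grin2 subunit with slow kinetics that dominates young neurons, varied least between groups among the subunits found in most cells. Its level at E18 ran from 0 to 1452 RPM per cell with a median of 146, in 72 of 82 cells above 10 RPM, at a pooled 252 RPM (95% interval 251 to 253). The pooled level was 252, 245 and 174 RPM in types 1, 2 and 3 at P2, with medians of 74.5, 138 and 105. At P5 it was 218, 201 and 147 RPM, with medians of 91.1, 58.9 and 145. The lowest pooled level, in P5 type 3, thus went with the highest share of cells, 21 of 22, and its cells ran from 2.91 to only 373 RPM. All groups overlapped with E18, and the largest distance from the E18 level was a log2 ratio of -0.77, in P5 type 3, where the share of read pairs on genes was also lowest.

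The other Grin2 subunits were scarce. Grin2a, which follows Grin2b in mature cortex, was above 10 RPM in 3 of 82 E18 cells, in 0 of 66 cells at P2 (which allows a share of up to 4.55%) and in 2 of 75 cells at P5, both of type 3, at 110.02 and 119 RPM. It had no read pair in any P2 cell. Grin2c, known from the cerebellum, had read pairs in 1 E18 cell only, at 13.4 RPM. Grin2d, which is common in IN lineages, was expressed in 4 of 82 E18 cells, in 0, 3 and 1 cells of types 1, 2 and 3 at P2 and in 1, 2 and 5 cells at P5. Its pooled level was 2.55 RPM at E18 and 15.3 RPM in P5 type 3, and the 93.7 RPM of P2 type 3 came from 1 cell at 2106 RPM, without which the level was 0.0126.

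Grin3a, the glycine-binding subunit, was highest in type 3 at P5. Its pooled level there was 101 RPM (95% interval 99.3 to 102), with 7 of 22 cells above 10 RPM (31.8%, 13.9 to 54.9), a median of 0.216 and cells at 818 and 658 RPM at the top. P5 type 1 had 1 of 34 cells above 10 RPM and a pooled 6.75 RPM, and P5 type 2 had 3 of 19 and 10.9 RPM. Without its highest cell P5 type 3 was still at 72.8 RPM. At P2 the gene had no read pair in the 22 cells of type 1, 12.5 RPM with 3 of 31 cells in type 2 and 38.5 RPM in type 3, which was 0.0132 without 1 cell of 13 at 431 RPM. At E18 it was expressed in 9 of 82 cells at a pooled 16.8 RPM. Of those 9 cells, 7 were among the 34 with at least 3 MGE genes, where the pooled level was 37.3 RPM, and in the 38 E18 cells with fewer than 3 genes of every other cell type it was 0.456 RPM.

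On the scale per kb of exon, Grin2b made up 95.6% of the summed Grin2 level at E18, 80.5% at P2 and 82.3% at P5, with Grin2d as most of the rest. Without the highest cell of each group those shares were 97.4%, 95.7% and 88.8%. Grin3a made up 41.8% of the summed NMDA level of P5 type 3, against 4.76% and 8.15% in P5 types 1 and 2 and 10.9% at E18. Grin2a, Grin2c, Grin2d or Grin3a was above 10 RPM in 12 of 22 cells of P5 type 3 (54.5%, 32.2 to 75.6), in 2 of 34 of P5 type 1, in 5 of 19 of P5 type 2, in 0 of 22 of P2 type 1 (which allows a share of up to 13.6%) and in 16 of 82 at E18.

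The ages were then compared by the log2 ratio of their pooled levels, each raised by 1 RPM, for every gene that over 5% of the compared cells expressed. A ratio of 2-fold or more was counted, since no test was possible. Of the 8 subunits that passed the filter from E18 to P5 (not Grin2a and Grin2c), 2 were at least 2-fold higher at P5 and 2 were at least 2-fold lower, while 31.5% of the 9808 genes compared differed that far (11.9% higher and 19.6% lower, or 15.9% and 16% relative to read pairs on genes). Relative to read pairs on genes the count was 6 of 8, with Gria2 and Grin3a (1.06) added, so with 8 genes the count depends on the scale and nothing is read from it. The median log2 ratio was 0.24 for the subunits and -0.17 for all genes. Gria1 was lower by a log2 ratio of -2.21 (110.1 against 513 RPM) and Gria4 by -1.40 (45.8 against 122.5 RPM). Grin1 was higher by 1.13 (12.2 against 5.05 RPM) and Grin2d by 1.67 (10.3 against 2.55 RPM), both with few cells. Grin2d passed the filter only through P5, where it was higher (8 of 75 against 4 of 82 cells). Without the highest cell of each side these 4 ratios were -2.37, -1.68, 0.95 and 1.38, so Grin1 was then not past 2-fold. Gria2 was at 0.84, which became 1.04 relative to read pairs on genes, and Grin2b was at -0.36 and -0.17 on the same scales.

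Without the cells that held at least 3 genes of another cell type, the P5 against E18 ratio was -1.64 for Gria1, 1.13 for Gria2, -2.33 for Gria4, -0.00 for Grin2b, 1.93 for Grin1, 1.00 for Grin2d (just under 2-fold) and 4.57 for Grin3a, which had been at 0.85. The Grin3a ratio set 33.5 RPM, with 9 of 68 P5 cells above 10 RPM, against 0.456 RPM, with 1 of 38 E18 cells. That E18 level is below the 1 RPM added to both sides. Gria1, Gria2 and Gria4 kept their direction. Within library sets B, C and D the ratio was -2.55, -0.73 and -2.09 for Gria1 and 1.22, 1.25 and 0.40 for Gria2. It was -1.03, -3.20 and -0.60 for Gria4, which was not past 2-fold in set D, and -1.18, 0.70 and -0.09 for Grin2b, which differed in direction between sets. In set C, with 9 E18 and 17 P5 cells, Gria1 was thus not past 2-fold. The ratio of Grin1 was -2.24 in set C, and that of Grin2d was below 0 in sets B and D, so these 2 did not keep their direction.

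From E18 to P2 4 of 8 subunits differed by at least 2-fold, as did 33.3% of the 9293 genes compared (11.5% higher and 21.8% lower, 15.6% and 18.2% relative to read pairs on genes, 22% and 13.9% with TMM factors). The median log2 ratio was -0.10 for the subunits and -0.21 for all genes. Gria1 was lower (-1.93, 134 against 513 RPM), as was Gria3 (-1.98, 2.64 against 13.4 RPM), which entered only through E18 (10 of 82 against 3 of 66 cells) and was at -0.39 as a mean over cells. Gria2 was higher (1.12, 475 against 219 RPM), as was Grin2d (2.21, 15.4 against 2.55 RPM), which entered only through P2 (4 of 66 against 4 of 82 cells). Gria3 and Grin2d thus passed the filter only through the side where they were higher, and nothing is read from the count. Without the highest cell of each side Gria1 remained past 2-fold, as did Gria3, which had passed the filter only through E18, while Gria2 was at 0.96 and Grin2d at 0.51. Without cells that held at least 3 genes of another cell type these ratios were -1.66, -1.17, 1.48 and 1.51, and Grin3a was at 3.19 instead of -0.50. Grin3a was then at 12.3 RPM with 4 of 62 P2 cells above 10 RPM, against 0.456 RPM with 1 of 38 E18 cells. This comparison shares the E18 cells with the one before, and the P2 cells differ from them in library set as well as in age. The E18 to P2 ratio of Gria1 was -4.45 in type 1, -1.14 in type 2 and -2.95 in type 3, and the E18 to P5 ratios were -1.69, -3.63 and -2.52. For Gria2 they were 1.43, 0.81 and 1.19 at P2 and 1.14, 0.45 and 0.50 at P5. Without the cells that held genes of another cell type, Gria1 was at -3.97, -0.82 and -2.71 at P2 and -1.19, -2.94 and -2.03 at P5, so P2 type 2 was no longer past 2-fold. Gria2 was then at 1.80, 1.18 and 1.40 at P2 and 1.53, -0.20 and 0.92 at P5, and it was thus higher than at E18 in 5 of the 6 types but not in P5 type 2.

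Each type was also set against the other cells of the same age. The types were drawn from these counts, so nothing is read from how many subunits passed, and the share of all genes past 2-fold is given beside each count. At P2, type 1 had Gria1, Gria4 and Grin1 at least 2-fold lower and no subunit higher, against 51.3% of 8400 genes (19.4% higher and 31.9% lower, 25.3% and 26.9% with DESeq2 size factors). Gria1 was at -3.08 (22.5 against 197 RPM), Gria4 at -2.37 and Grin1 at -1.95. Grin2d and Grin3a entered the comparison only through the other types, so their direction follows from the filter. Each was above 10 RPM in 0 of 22 cells against 4 of 44, with 2 read pairs of Grin2d and none of Grin3a in type 1, and the 24.2 and 18.1 RPM of the other types were 4.13 and 10.03 without the highest cell. Since 0 of 22 cells allows a share of up to 13.6%, above the 9.09% of the other types, no fold is given. As a difference of the mean over cells of log2(RPM + 1), Gria1 was at -2.69, while Gria4 and Grin1 were at -0.97 and -0.81 and thus not past 2-fold on that scale. Type 2 at P2 had Gria1 higher by 2.73 (233 against 34.2 RPM) and Grin2d lower by -2.10, which became 1.80 without the highest cell of each side, against 48% of genes (28.1% higher and 19.9% lower). The Gria1 difference lay between 2.32 and 2.94 in the 7 alternatives. Without the highest cell of each side Gria4 (2.32), Grin1 (1.12) and Grin3a (1.85, with 3 of 31 against 1 of 35 cells above 10 RPM in all cells) were past 2-fold too. MGE genes differed between the P2 types too, with a summed pooled level of 57.3, 330.2 and 318 RPM in types 1, 2 and 3, cell medians of 1.41, 2.55 and 4.96, and 0, 3 and 1 cells with at least 3 of them. Between types 2 and 3 the single genes did not run one way, since the pooled Lhx6, Sst and Sox6 were higher in type 2 and Nkx2-1 and Satb1 in type 3. Without the cells that held genes of another cell type, Gria1 in P2 type 2 was at 206 RPM. Type 3 at P2 had Gria1 lower (-1.13, but 0.14 as a mean over cells, with 4 of 13 against 15 of 53 cells above 10 RPM) and Gria4, Grin2d and Grin3a higher, against 69.4% of genes (16% higher and 53.4% lower, 30% and 42.5% with DESeq2 size factors), and Gria4, Grin2d and Grin3a each turned below 0 when 1 cell was left out on each side (-5.75, -1.27 and -1.30).

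At P5, type 1 had Gria1 higher by 1.29 (158 against 63.9 RPM), and Gria3 (-3.01), Grin1 (-1.18) and Grin3a (-2.84) lower, against 47.3% of 9675 genes (23.6% higher and 23.7% lower). Gria1 was at 0.27 within library set D, not past 2-fold, and it was not past 2-fold as a mean over cells either. Gria3 entered only through the other types, being above 10 RPM in 0 of 34 against 4 of 41 cells, and was at -1.75 without the highest cell of each side and at -0.77 as a mean over cells. Grin3a likewise had 1 of 34 against 10 of 41 cells. Grin1 was at 0.41 within set B, so its direction turned there. Type 2 had Gria1 (-1.71, 40.5 against 135 RPM) and Grin3a (-1.72) lower, against 45.3% (23.5% higher and 21.8% lower, 18.1% and 29.2% relative to read pairs on genes). Gria1 was at -0.62 within set D, which holds 14 of the 19 type 2 cells, and so not past 2-fold there. The direction of Grin3a in type 2 was not kept, since 3 of 19 cells (15.8%) against 8 of 56 (14.3%) were above 10 RPM, the mean over cells of log2(RPM + 1) differed by 0.22 and the ratio was 4.81 in library set C. In type 3, where 60.4% of genes were past 2-fold (14.7% higher and 45.7% lower, 28.1% and 34% relative to read pairs on genes, 22.7% and 38.7% with TMM factors, 22.3% and 37.3% with DESeq2 size factors), Grin3a was higher by 3.47 (101 against 8.18 RPM) and by 3.84 without the highest cell of each side, Gria3 by 2.58 and 1.00, and Grin1 by 1.57 and 0.62. Gria3 entered only through type 3, with 2 of 22 against 2 of 53 cells above 10 RPM and 85.5% of the type 3 read pairs in 1 cell, and it was at -0.41 within library set D. Grin1 was at -1.08 within set C. Gria4 was at 1.16 with all cells and at -0.94 without the highest ones. The Grin3a difference was 2.65 in library set D, with 17 type 3 cells, and 7.39 in set B with 2, while in set C none of 3 type 3 cells was above 10 RPM and the ratio was -2.67. Gria1, Gria2 and Grin2b were at -0.39, -0.44 and -0.52 in P5 type 3, and at 0.35, 0.31 and 0.22 relative to read pairs on genes, so their direction there depends on the scale. Gria1 had opposite directions at the 2 ages in type 1 and in type 2, and this was not tested.

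**Figure D4:**
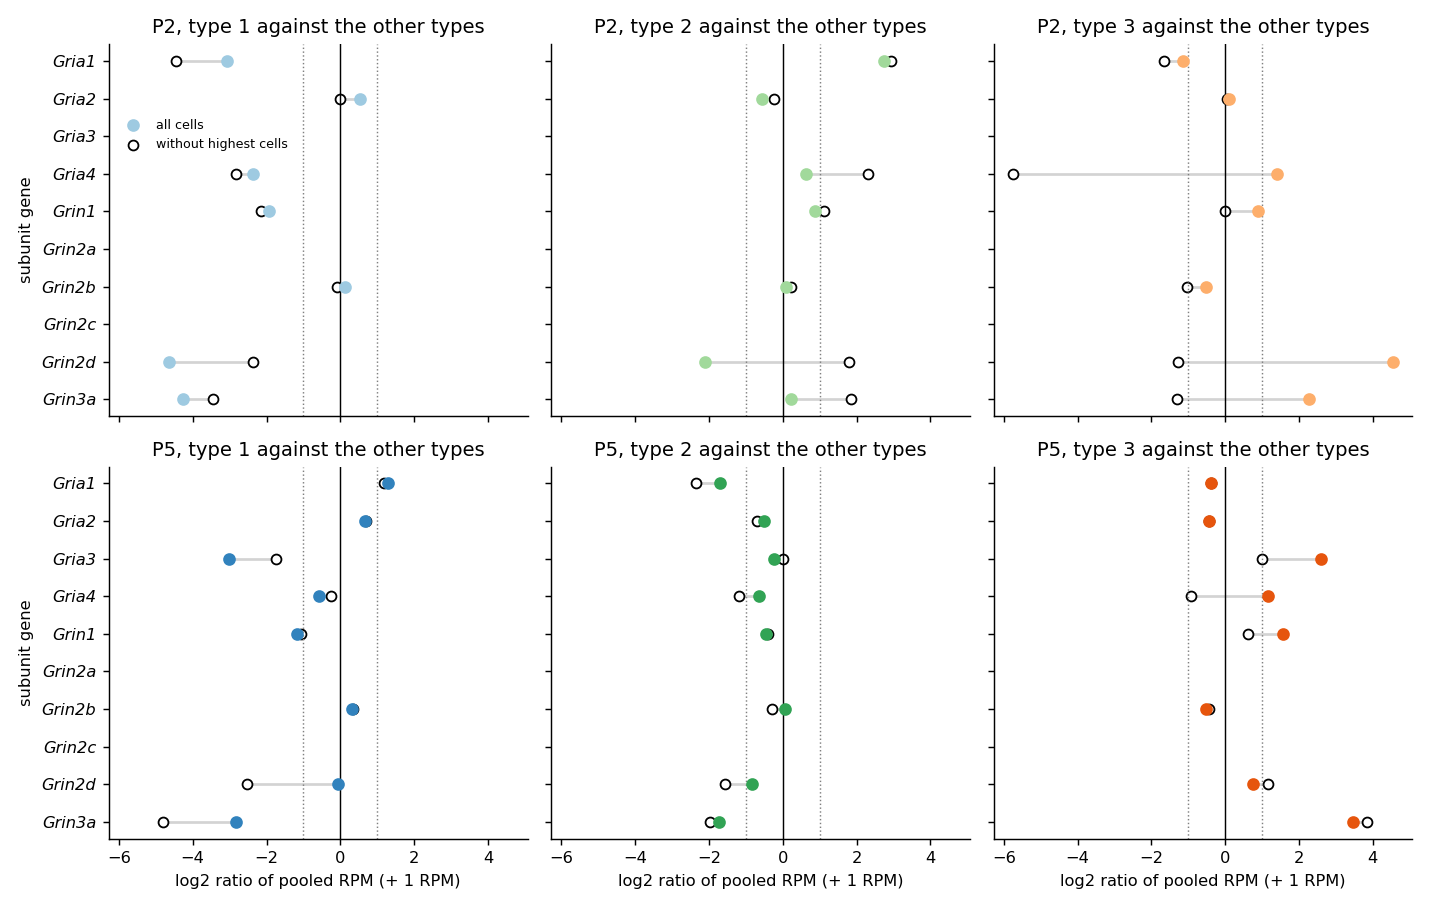
Log2 ratio of the pooled level of each type, raised by 1 RPM, to that of the remaining cells of the same age, for P2 (top) and P5 (bottom). Filled points use all cells, open points leave out the highest cell of each side, dotted lines mark 2-fold and rows without a point did not pass the expression filter. Gria1 lies at -3.08 in P2 type 1 and at 1.29 in P5 type 1, and the points of Grin2d and Gria4 in P2 type 3 cross 0.

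Nearly every cell had some subunit of the 10 above 10 RPM. At least 1 AMPA and 1 NMDA subunit were above 10 RPM in 70 of 82 cells at E18 (85.4%, 75.8 to 92.2), in 15 of 22, 27 of 31 and 7 of 13 cells of types 1, 2 and 3 at P2, and in 28 of 34, 15 of 19 and 22 of 22 at P5. Cells with neither were 0 of 82 at E18 (which allows a share of up to 3.66%), 0 of 66 at P2 and 1 of 75 at P5, of type 2. The median number of subunits above 10 RPM was 3 at E18, 2 in P2 type 1, 3 in P2 type 2, 2 in P2 type 3, 3 in P5 type 1, 2 in P5 type 2 and 4 in P5 type 3. Over all genes, the median number above 10 RPM was 2495.5 at E18. It was 1834, 2482 and 1437 in types 1, 2 and 3 at P2 and 2258, 2738 and 2101.5 at P5. P2 type 3 also had the lowest median of mapped read pairs, 6483871. How far the subunit counts follow these values was not tested. Gria2 and Grin2b were found together in 53 of 82 cells at E18, 44 of 66 at P2 and 56 of 75 at P5. Grin2b was above 10 RPM in 53 of 62 E18 cells with Gria2 and in 19 of 20 without it, so these 2 genes did not mark separate cells. Across cells of 1 age, Pearson's r of log2(RPM + 1) between Gria2 and Grin2b was -0.02, 0.10 and 0.21 at the 3 ages in turn, and the highest r among the pairs of subunits that at least 10 cells each expressed was 0.46, between Gria1 and Gria4 at P2 (66 cells, 0.18 at E18 and -0.04 at P5). The P2 cells carry 1 library set while those of E18 and P5 mix 3, and the P2 and P5 cells mix types.

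The partners of these receptors were read from lists of genes. Their counts past 2-fold stand beside the 11.9% of all genes compared that were higher and the 19.6% that were lower, and with lists this short nothing is read from them. Without cells that held genes of another cell type, those shares of all genes were 19.9% and 20.8%. Of 16 AMPA auxiliary subunits, which control trafficking and gating, 9 passed the filter from E18 to P5. The lower ones were Cacng2, Cacng3, Cnih2 and Shisa6 and the higher ones Shisa9 and Cpt1c, with a median log2 ratio of -0.71 against -0.17 for all genes. Without cells that held genes of another cell type 3 were higher and 3 lower, Shisa6 being at -0.79 and Frrs1l at 1.02. Cacng3 went from 99.6 RPM in 26.8% of E18 cells to 4.58 RPM in 6.67% of P5 cells, a log2 ratio of -4.17 that was -1.57 without cells that held genes of another cell type, and Cacng4 was at 112 and 130.4 RPM, in 58.5% and 72% of cells, at 0.21. Of 9 kainate and delta receptor genes and their partners, 8 passed the filter, and 5 were lower (Grik1, Grik2, Grik5, Grid1 and Neto1), with a median of -1.17. Grik1, a kainate subunit common in INs, was at -1.80 (27.2 against 96.9 RPM), Neto1, a kainate auxiliary subunit, at -1.72 and Grik2 at -1.27. Without cells that held genes of another cell type they were at -0.76, -0.94 and -1.22, and 2 of the list were lower. Of the 3 RNA editing genes 2 were higher: Adarb1, the enzyme of the Gria2 Q/R site, at 1.07 (24.6 against 11.2 RPM, 40% against 13.4% of cells), and Adarb2, a relative with no known editing activity, at 1.30 (309 against 125 RPM). Adar was at 0.24. Without cells that held genes of another cell type Adarb1 was at 1.72 and Adarb2 at 0.22 (315 against 271 RPM), so 1 of the 3 was past 2-fold.

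Of 26 postsynaptic scaffold and trafficking genes 22 passed the filter, 3 were higher and 4 lower, and their median of -0.13 lay near that of all genes. Without cells that held genes of another cell type 5 were higher and 3 lower, against 19.9% and 20.8% of all genes, and 4 were past 2-fold the same way in both. Dlgap2, a scaffold partner of PSD-95, was lower (-1.74, 65 against 219 RPM), Grip1, which binds the tail of Gria2, was higher (1.18, 221 against 97 RPM), and Homer1, a scaffold of metabotropic receptors, was at -0.96. These were -1.93, 1.52 and -1.39 without cells that held genes of another cell type. Of 8 metabotropic glutamate receptors 3 passed, of which Grm4 was higher, and Grm5 was at -0.52 (62.2 against 89.5 RPM) and at 0.96 without cells that held genes of another cell type. Of the 4 genes for glycine and D-serine supply only Srr, the enzyme that makes D-serine, passed, with a ratio of 0.44.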

How the data were processed

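The authors aligned read pairs of each cell to GRCm38 with TopHat2 and counted them per gene with HTSeq 0.6.1. The deposited table gives a raw count of read pairs for 43629 genes per cell, and the labels give a coefficient that turns a cell's counts into RPM relative to all mapped read pairs. No column of cells was left unused (0). Identifiers were matched to symbols in GENCODE M21, which also gave lengths and the printed sequences.

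Counts were summed per group. Genes were compared where over 5% of the compared cells passed 10 RPM, and the call was 2-fold with a pseudocount of 1 RPM. Animals were pooled per age and cells are tied to no animal, so no test was made. The members and gene lists were chosen with earlier results of these data known. Genes named are the 10 subunits, per list up to 3 genes by size of the P5 against E18 ratio among genes that at least 25% of cells on the higher side expressed (others are named only with counts, after their values were seen), those past 2-fold the same way at both ages for a type, and the 5 genes most like Gria1, Gria2 and Grin2b.

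The alternatives changed the pseudocount, library size, threshold, depth (thinning to 3500000 mapped read pairs), gene length, cells and library sets. The length of the longest coding transcript, and ratios of types to E18 and of list genes without cells that held 3 genes of another cell type, were added after seeing the data. The software was R 4.3.3 with edgeR 4.0.16 (TMM factors) and DESeq2 1.42.0 (size factors), and Python 3.11.15 with scipy 1.17.1, pandas 2.3.3, numpy 2.4.6 and matplotlib 3.10.9. The fold step was tested on simulated data.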

Additional observations from a re-analysis of the deposited data

How the results depend on the processing

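No paired analysis was possible because animals were pooled at each age, the replicate numbers only name cells and no test was made. The counting error of read pairs is small beside the differences between cells at this depth. It does not cover the sampling of molecules, since PCR copies were not told apart, and that was not assessed. The number of cells and the lack of separate animals limit the values as well. The median log2 ratio of all genes shifted by 0.13 to 0.19 between P5 and E18 and by 0.16 to 0.46 between P2 and E18 under the other library sizes, by 0.40 to 0.70 in P5 type 3 and by 0.12 to 0.89 in P2 type 3, while the other types shifted by up to 0.32 in either direction. With a pseudocount of 0.1 RPM, the total count on genes, TMM factors, DESeq2 size factors or without cells that held 3 genes of another cell type, the number of subunits past 2-fold stayed within 1.5 times in all 8 comparisons. With the total count on genes, the number from E18 to P5 lay at that limit. The cause of the changes below was not tested.

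With the mean over cells of log2(RPM + 1) in place of the pooled level, 2 subunits were past 2-fold from E18 to P2 instead of 4, 1 instead of 5 in P2 type 1, 2 instead of 4 in P2 type 3, 1 instead of 4 in P5 type 1 and 2 instead of 4 in P5 type 3. The 5 of P2 type 1 include Grin2d and Grin3a, which entered only through the other types. Nothing is read from these counts. Of all genes compared, 18.6%, 16.8%, 30%, 18% and 27.9% were past 2-fold on that scale in these comparisons, fewer than by pooled level. The ratios that changed direction were those of Grin2d in P2 type 2 (0.36), Gria1 (0.14) and Gria4 (-1.24) in P2 type 3, Grin3a in P5 type 2 (0.22) and Gria4 in P5 type 3 (-0.31). Without the highest cell of each side, 2 subunits were past 2-fold from E18 to P2, 5 instead of 2 in P2 type 2 and 4 instead of 2 in P5 type 2 (39.3%, 51.1% and 47.6% of all genes), and the ratios were 1.80 for Grin2d in P2 type 2, -5.75 for Gria4, -1.27 for Grin2d and -1.30 for Grin3a in P2 type 3, and -0.94 for Gria4 in P5 type 3, which was at -1.54 without cells that held 3 genes of another cell type. Within library set B the P5 against E18 ratio was -0.26 for Grin2d, and 6 subunits were past 2-fold in P5 type 2 (70.9% of all genes), with Grin1 at 0.41 in P5 type 1 and Gria4 at -0.29 in P5 type 3. Within set C Grin1 was at -2.24 from E18 to P5, 6 subunits were past 2-fold in P5 type 2 (65.8% of all genes), Grin3a was at 4.81 in that type, and Gria4, Grin1 and Grin3a were at -3.45, -1.08 and -2.67 in P5 type 3. Within set D Grin2d was at -0.35 from E18 to P5 and Gria3 at -0.41 in P5 type 3.

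The Gria2 share of the AMPA level at E18, P2 and P5 was 25.7%, 66.2% and 71% per kb of coding sequence, 15.2%, 50.3% and 55.9% per kb of the longest coding transcript, 27.5%, 65.2% and 62% as a mean of the share over cells, 12%, 45.6% and 54% without the highest cells, and 11.1%, 46.1% and 48.6% without cells that held 3 genes of another cell type. Within sets B, C and D it was 8.60%, 11.8% and 24.4% at E18 and 49.3%, 38.2% and 56.3% at P5, so it was higher at P5 in each. The Grin2b share of the Grin2 level was 98.4%, 93.2% and 93.2% per kb of coding sequence, 94.8%, 77.7% and 79.7% per kb of the longest coding transcript, 96.2%, 92% and 89.3% as a mean over cells, 97.4%, 95.7% and 88.8% without the highest cells, and 90.7%, 78.4% and 81.4% without cells that held 3 genes of another cell type. Within sets B, C and D it was 99.1%, 97.3% and 85.3% at E18 and 99.7%, 73.4% and 86% at P5. The share of cells with both an AMPA and an NMDA subunit was 93.9% at E18 above 1 RPM and 75.6% above 30 RPM, and 100% with at least 1 read pair. Above 1 RPM it was 86.4%, 100% and 84.6% in types 1, 2 and 3 at P2, and 94.1% and 94.7% in P5 types 1 and 2. With at least 1 read pair it was 100% in each P2 type, 97.1% in P5 type 1 and 100% in P5 type 2.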

Other observations

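Between types, where 51.3% and 47.3% of all genes were past 2-fold in type 1 at P2 and P5 (31.9% and 23.7% lower) and 69.4% and 60.4% in type 3 (53.4% and 45.7% lower), nothing is read from the lists and 4 genes are given by their values. Grm5, the group I metabotropic receptor that couples to NMDA receptors, was lower in type 1 at both ages, at 0.00904 against 73.6 RPM at P2 (0 of 22 against 13 of 44 cells above 10 RPM, so that it entered only through the other types) and 6.30 against 116 RPM at P5. Grik2 was lower in type 1 (log2 ratios of -1.85 at P2 and -3.09 at P5) and higher in type 3 (1.77 and 2.70). Cacng2, the auxiliary subunit stargazin, was lower in type 1 (-3.87 and -1.01), though at P2 it entered only through the other types (4.55% against 25% of cells). Adar was lower in type 3 (-4.57 and -1.98). These are the only genes of the lists that were past 2-fold the same way at both ages with at least 25% of cells on the higher side expressing them. They are descriptions, because the type assignment used these counts.

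The E18 cells with at least 3 excitatory neuron genes differed in their AMPA subunits from those with at least 3 MGE genes, 2 cells being in both. Gria2 was above 10 RPM in 12 of 12 of the former at a pooled 494 RPM and in 27 of 34 of the latter at 171 RPM, while Gria1 was in 6 of 12 at 111 RPM and in 32 of 34 at 804 RPM. Grin2b was at 156 and 330.4 RPM.

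Over the cells of all ages, the 5 genes whose log2(RPM + 1) had the highest Pearson's r with Gria1, of 3018 genes expressed by at least 25% of cells, were Sst (0.47), Mef2c (0.46), Nxph1 (0.45), Cux2 (0.44) and Mpped1 (0.41), where the median gene had 0.04. The cells of an age come from pooled animals and mix types, and the values were 0.38, 0.28, 0.57, 0.45 and 0.34 within E18, 0.39, 0.47, 0.41, 0.48 and 0.48 within P2, and 0.00, 0.33, -0.03, -0.11 and -0.04 within P5. For Gria2 the highest was Meg3 (0.34), followed by Meis2 (0.26), Orc3, Zbtb8os and Pkia, and for Grin2b it was Nxph1 (0.27), followed by Mapt, Cadm1, Ncoa3 and Nsg1. Correlations this weak in sparse counts are given as values only.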
